A study of Mus musculus with 13 samples.

Results

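The genes described here are 48 lysosomal genes of mouse embryonic fibroblasts (MEFs), listed by gene name from knowledge of the lysosome, by a rule that uses no expression value but with earlier results of these data known: 10 glycosidases, 5 sulfatases and enzymes of glycosaminoglycan breakdown, 11 proteases, 7 lipid enzymes and their cofactors, 7 membrane proteins, 5 subunits of the proton pump and 3 transcription factors. All 48 symbols matched a gene among the 57010 listed per library, and all 48 were among the 15034 genes that passed the filter on low counts. RNA was sequenced from WT MEFs in 4 groups of 3 mice (mouse 4, 5 and 6 in each): untreated control MEFs, senescent MEFs (SnCs) that received no fucoidan, and SnCs given Fucoidan-FV, the fucoidan of the brown alga Fucus vesiculosus, at 100 or 300 μg/mL. Senescence was induced with 2 μM etoposide, a topoisomerase II inhibitor that breaks DNA, for 24 h followed by 5 days without it. RNA was taken 12 h after the start of Fucoidan-FV treatment. The methods give 3% oxygen for growing the MEFs and do not state the oxygen level of the sequenced cultures during treatment. The etoposide and Fucoidan-FV conditions are those of the study's methods, the controls differ from the SnCs in both etoposide and senescence, and no control MEFs with Fucoidan-FV are part of the comparisons. The labels call the controls untreated, and the paper states that they received vehicle in place of etoposide. The strain of the mice is not given in the sources used here. Control mouse 5 had 2 libraries, 5(1) and 5(2), which were summed, so n = 3 in every group.

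Lysosomes are acidic organelles in which hydrolases break down proteins, glycans, lipids and nucleic acids delivered by endocytosis and autophagy. A V-type proton ATPase (V-ATPase) acidifies the lumen, heavily glycosylated membrane proteins line the limiting membrane, and the MiT family of transcription factors, TFEB, TFE3 and MITF, activates many lysosomal genes through promoter elements built around an E-box. Senescent cells are known for an enlarged lysosomal compartment, and the senescence-associated β-galactosidase (SA-β-gal) stain used to find them reads the lysosomal enzyme encoded by Glb1.

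Letters of that E-box were looked up in RefSeq promoter windows (GRCm38.p6 table, 250 bases before to 50 bases after a start) for the 42 members found in the table; Ctsb, Ctsh, Asah1, Npc1, Atp6v1b2 and Atp6v1h had no entry. Both strands were searched for CACGTG, and for TCACGTG and TCACGTGA, which contain it, so the 3 counts are nested. CACGTG was present in 13 members (30.952%) against 8.093% of all 27025 genes in the table, TCACGTG in 12 members (28.571%) against 4.292%, and the palindrome TCACGTGA in 6 members (14.286%) against 1.125%. A match describes letters and not a bound site. The windows of Glb1, Gaa, Ctsd, Sgsh and Mcoln1 are shown because these genes carry the results or span the roles; each is read 5′ to 3′ on the gene's strand, the capitals mark the matched letters (CACGTGA is TCACGTG on the other strand), and positions are in GRCm39, where each window matched once near its gene.
Glb1, chr9:114230086-114230114, plus strand: ctgcttctgagTCACGTGgcctacagagg
Gaa, chr11:119158637-119158665, plus strand: tttctgtgcgaTCACGTGtttgactctga
Ctsd, chr7:141941792-141941814, minus strand: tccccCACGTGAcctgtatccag
Ctsd, chr7:141941645-141941674, minus strand: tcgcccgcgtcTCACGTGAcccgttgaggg
Sgsh, chr11:119246348-119246376, minus strand: ggcctgccgtgCACGTGAccgtggggagc
Mcoln1, chr8:3550462-3550491, plus strand: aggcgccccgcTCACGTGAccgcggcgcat
The letters begin 49 bases before the RefSeq start in Glb1, 141 in Gaa, 245 and 99 in Ctsd, 29 in Sgsh and 46 in Mcoln1, which holds another match, TCACGTG, that begins 72 bases before the start and is not shown. In the GENCODE annotation the windows of Glb1 and Gaa and the far window of Ctsd overlap no gene, whereas the near window of Ctsd and those of Sgsh and Mcoln1 overlap an exon of the same gene, and that of Sgsh also an exon of Slc26a11. Of the 13 members with CACGTG, 7 were called higher in SnCs below, and so were 7 of the 29 members with a window and no such letters.

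Depth and labels were checked first. The 13 libraries held 22782505 to 31278741 expected counts each. Cdkn1a and Cdkn2a, which encode the cell cycle inhibitors p21 and p16, rose in SnCs by 1.82 ± 0.18 and 2.46 ± 0.25 on the log2 scale (SE; edgeR's quasi-likelihood test, Benjamini-Hochberg adjusted p = 6.8e-05 and 7.24e-05). All 10 fibroblast markers were among the genes tested, with summed levels of 31846 to 53789 CPM per sample, CPM being a gene's counts as a share of the sample's total, scaled to a fixed library size. Fn1 alone had 18163 to 42455 CPM of that sum. Other markers of the list were low in controls, with Lum at 0 to 0.0982 CPM, Dcn at 0.726 to 1.57 CPM and Pdgfra at 2.07 to 18.5 CPM. The 12 macrophage markers summed to 3.57 to 5.32 CPM in controls, 3.16 to 18.4 CPM in SnCs, 7.39 to 15.8 CPM at 100 μg/mL and 4.65 to 13.4 CPM at 300 μg/mL; the part of such cells in the results was not tested. Epithelial markers stayed at or under 2.04 CPM, endothelial markers at or under 11.7 CPM with Cldn5 at 0 throughout, and skeletal muscle markers at or under 121 CPM, nearly all from Acta1, with Myf5 at 0 throughout.

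The first comparison, SnCs against control MEFs, asked how lysosomal transcripts differed in the senescent state. Of the 48 members, 16 (33.3%) were higher in SnCs at an adjusted p under 0.05 and 0 were lower, where 6.11% of all genes tested were called higher and 5.63% lower (edgeR's quasi-likelihood test with Benjamini-Hochberg adjustment over 15034 genes). At an unadjusted p under 0.05, 23 members passed and all 23 were higher, where 25.4% of all genes tested passed in either direction. DESeq2 also called 0 lower. With the added fold threshold used for differentially expressed genes (DEGs), an absolute log2 fold change over 1, 6 members remained, against 4.47% of all genes. The fitted difference was above 0 for 46 members and below 0 for 2, Galc and Tfe3, and its median was 0.66 over the members and 0.07 over all genes tested. Per mouse, on the log2(CPM + 0.5) scale, the members' median was 0.72, 0.60 and 0.65 in mice 4, 5 and 6. Together the members took 0.741% ± 0.0678 of a sample's counts in controls and 1.40% ± 0.106 in SnCs (SD, n = 3). Ctsd, Psap and Ctsl made up 35.6 to 41.3% of the members' counts in controls and 45.3 to 47.4% in SnCs. With Fucoidan-FV their part was 42.3 to 49.4%. The summed rise in SnCs was thus not shared evenly by the members. In bulk RNA, more cells with a transcript and more of it per cell cannot be told apart.

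**Figure D1:**
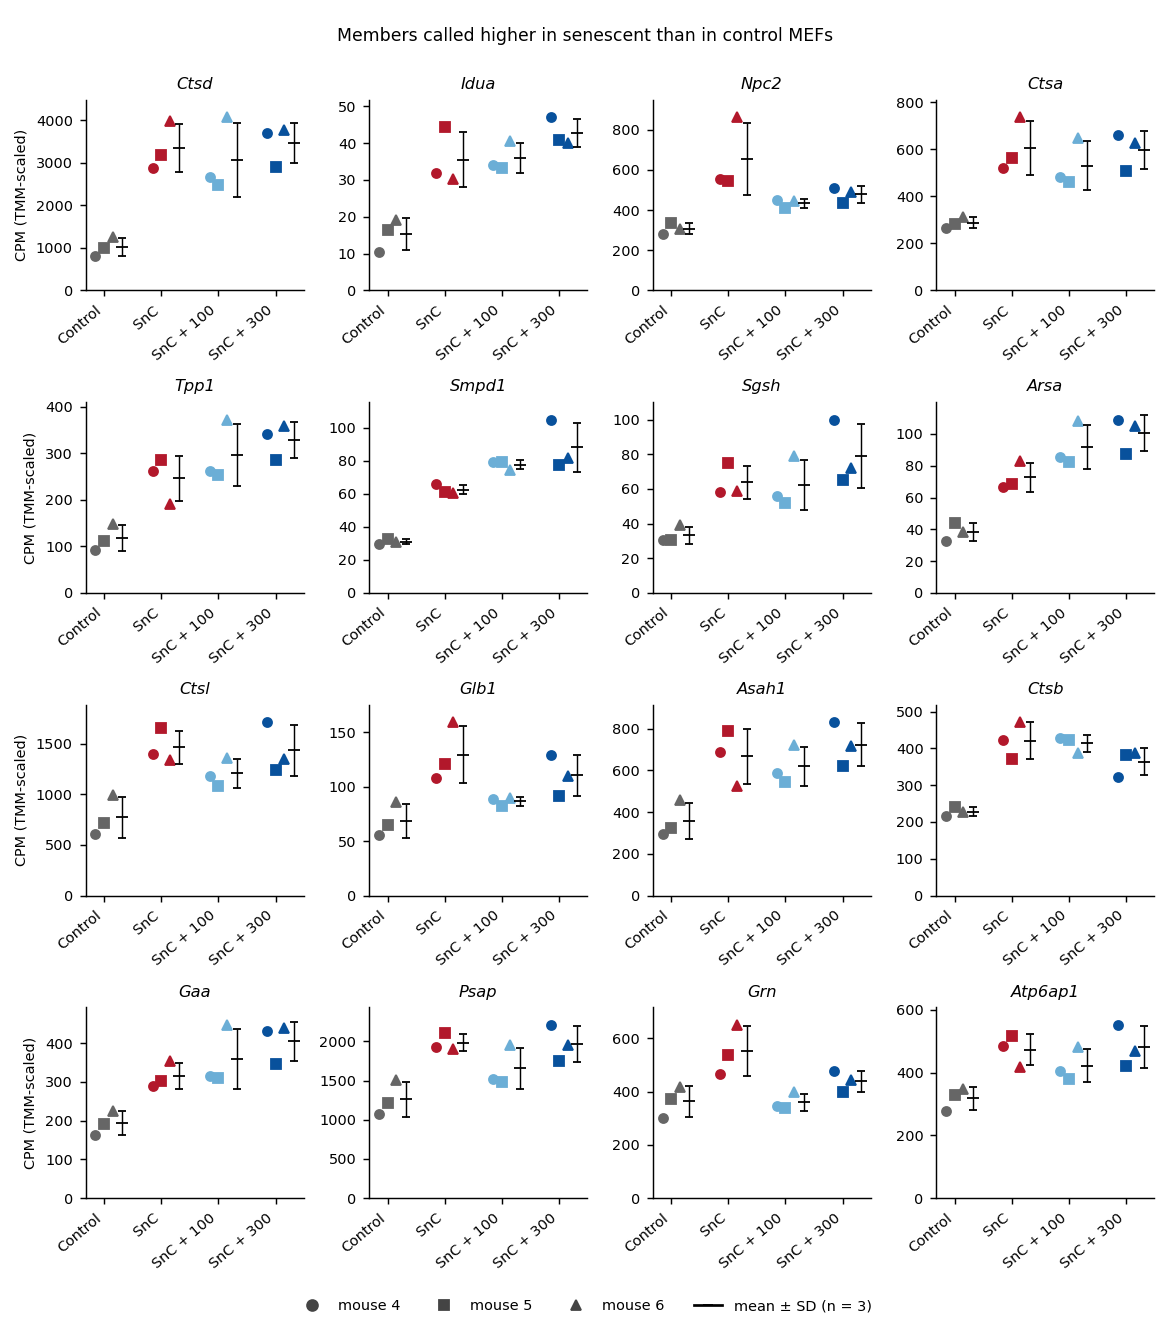
Each panel plots the TMM-scaled CPM (y axis, from 0) of 1 of the 16 members called higher in SnCs, for control MEFs, SnCs, and SnCs with 100 or 300 μg/mL Fucoidan-FV (x axis); symbols are mice, and bars are the mean ± SD of 3 mice. In every panel all 3 SnC points lie above all 3 control points, as for Glb1 (55.1 to 85.5 CPM in controls, 108 to 159 CPM in SnCs). The panels were chosen by their call, so this separation follows in part from that choice.

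Levels are given below as CPM scaled with TMM factors, always in the order of mice 4, 5 and 6. Groups without overlap are described only, as the share of all genes separated likewise is not given here. For called members the separation follows in part from the call. Among the glycosidases, which trim sugars from glycoproteins, glycolipids and glycogen, 2 of 10 were called higher. Glb1, which encodes the β-galactosidase behind SA-β-gal (ENSMUSG00000045594, chr9:114230144-114303966, plus strand), measured 55.1, 65.1 and 85.5 CPM in controls and 108, 121 and 159 CPM in SnCs. The groups did not overlap, and the difference was 0.92 (SE 0.21, 95% CI 0.46 to 1.37, 1.89-fold, adjusted p = 0.0135). Gaa, the acid α-glucosidase that degrades glycogen, measured 163, 192 and 224 CPM in controls and 290, 301 and 354 CPM in SnCs. Fuca1, which removes fucose from glycans, had the largest fitted difference of the glycosidases, 1.37, but was not called (SE 0.45, adjusted p = 0.0694): its SnC levels of 33.1, 20.7 and 71.9 CPM overlapped the controls' 21.5, 17.6 and 9.59 CPM. Hexa, a subunit of β-hexosaminidase, spread from 6.58 to 41.4 CPM within controls and from 22.8 to 106 CPM within SnCs. Gusb (0.01, 95% CI -0.41 to 0.43), Gla, Galc, Neu1, Man2b1 and Manba were not called either, with differences of -0.53 to 0.59.

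Glb1 lost its call under 3 of the 19 alternatives: its difference was 0.42 (adjusted p = 0.52) with offsets for gene length and number of transcripts, which also ended the call when combined with the replicate block, and its adjusted p was 0.0808 when only SnCs and controls were fitted. Adjusted p ranged from 0.00198 to 0.52 over the alternatives. In the annotation, 6.4% of its exonic bases are shared with Tmppe on the same strand.

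Of the sulfatases and glycosaminoglycan enzymes, which take apart heparan and dermatan sulfate and sulfatide, 3 of 5 were called higher. Idua, the α-L-iduronidase, measured 10.5, 16.4 and 19.1 CPM in controls and 32.0, 44.3 and 30.4 CPM in SnCs. Sgsh, the heparan N-sulfatase, went from 30.4, 30.4 and 39.0 CPM to 58.4, 75.0 and 58.6 CPM. Arsa, the sulfatase of sulfatide, had 32.7, 44.0 and 38.4 CPM in controls and 66.7, 68.3 and 83.0 CPM in SnCs. None of these 3 overlapped between the groups, and their differences were 1.21 (SE 0.25, adjusted p = 0.00724), 0.95 (SE 0.23, adjusted p = 0.018) and 0.92 (SE 0.19, adjusted p = 0.00672). Ids and Arsb were not called, with differences of 0.41 and 0.38 and overlapping groups.

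The proteases had a median difference of 0.89, and 5 of 11 were called higher. Ctsd, the aspartic protease cathepsin D (ENSMUSG00000007891, chr7:141929646-141941775, minus strand), had the largest difference of the called members and the highest level of all 48 in SnCs. It measured 817, 995 and 1242 CPM in controls and 2869, 3172 and 3969 CPM in SnCs, a difference of 1.71 (SE 0.24, 3.28-fold, adjusted p = 0.000571). The lowest SnC value of Ctsd lay well above the highest control value. Ctsa, the protective protein that holds β-galactosidase and neuraminidase in a complex, measured 266, 282 and 313 CPM in controls and 518, 563 and 736 CPM in SnCs. Tpp1, a tripeptidyl peptidase, rose from 92.9, 112 and 149 CPM to 261, 286 and 192 CPM. Both differences were about the same size, 1.08 (SE 0.20, adjusted p = 0.00316) for Ctsa and 1.06 (SE 0.23, adjusted p = 0.00863) for Tpp1, and mouse 6 was the lowest SnC sample for Tpp1 but the highest for Ctsa. Ctsl, the cysteine protease cathepsin L, had 605, 717 and 991 CPM in controls and 1397, 1651 and 1341 CPM in SnCs. Ctsb, cathepsin B, had 216, 240 and 226 CPM in controls and 423, 370 and 471 CPM in SnCs. Their differences were 0.92 (SE 0.21, adjusted p = 0.012) and 0.89 (SE 0.16, adjusted p = 0.00245), with no overlap between the groups. Ctsh did not overlap either but missed the threshold (0.74, SE 0.26, adjusted p = 0.0844), which it passed with the replicate block (0.0443), and Ctsc, Ctsk, Ctsz and Lgmn were not called. Ctss, a cathepsin of immune cells, had 0 to 33 counts per sample, too few to measure a difference (1.74, 95% CI -1.61 to 5.09).

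The lipid enzymes and cofactors differed in 1 direction: all 7 had an unadjusted p under 0.05, and 5 of 7 were called higher. Npc2, which hands cholesterol to NPC1, measured 280, 335 and 304 CPM in controls and 555, 544 and 863 CPM in SnCs. Smpd1, the acid sphingomyelinase, had the tightest groups, with 29.6, 32.4 and 31.0 CPM against 65.8, 61.3 and 60.8 CPM. Asah1, the acid ceramidase, measured 297, 323 and 457 CPM in controls and 688, 789 and 527 CPM in SnCs. No group overlapped for these genes. The differences were 1.09 (SE 0.19, adjusted p = 0.00259), 1.01 (SE 0.17, adjusted p = 0.00188) and 0.90 (SE 0.22, adjusted p = 0.017). Psap, the precursor of the saposins that present sphingolipids to their hydrolases, and Grn, the precursor of the granulins, were called with smaller differences of 0.65 and 0.60. Lipa, the acid lipase, and Ppt1, a palmitoyl-protein thioesterase, had differences of 0.61 and 0.76 and adjusted p of 0.117 and 0.0849.

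Of the 7 membrane proteins 0 were called (edgeR; 2 at an unadjusted p under 0.05), although all 7 differences were above 0, from 0.42 to 1.17. Their median difference was 0.54, next to 0.51 for the glycosidases, and whether membrane proteins and soluble enzymes differ was not tested. DESeq2 called 0 of the 7 too. Mcoln1, the lysosomal calcium channel, measured 28.3, 26.6 and 28.5 CPM in controls and 38.6, 33.2 and 49.2 CPM in SnCs (0.54, SE 0.20, adjusted p = 0.114). Npc1, the membrane cholesterol transporter, measured 39.9, 47.7 and 58.2 CPM in controls and 72.9, 71.7 and 61.7 CPM in SnCs (0.50, SE 0.18, adjusted p = 0.103). These were the only membrane proteins whose groups did not overlap. Lamp1, the most familiar lysosome marker, ranged from 50.8 to 232 CPM in controls and from 109 to 322 CPM in SnCs, so that a difference was not detectable (0.56, 95% CI -0.70 to 1.83). Lamp2, Cd63 and Scarb2 also overlapped. Cd68, a macrophage lysosome marker, had 0 to 50 counts per sample. Of the V-ATPase genes, Atp6ap1, an accessory subunit, was called at 276, 328 and 348 CPM against 486, 515 and 418 CPM (0.58, SE 0.17, adjusted p = 0.0469), while Atp6v0d1, Atp6v1a, Atp6v1b2 and Atp6v1h had differences of 0.23 to 0.87 and were not.

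**Figure D2:**
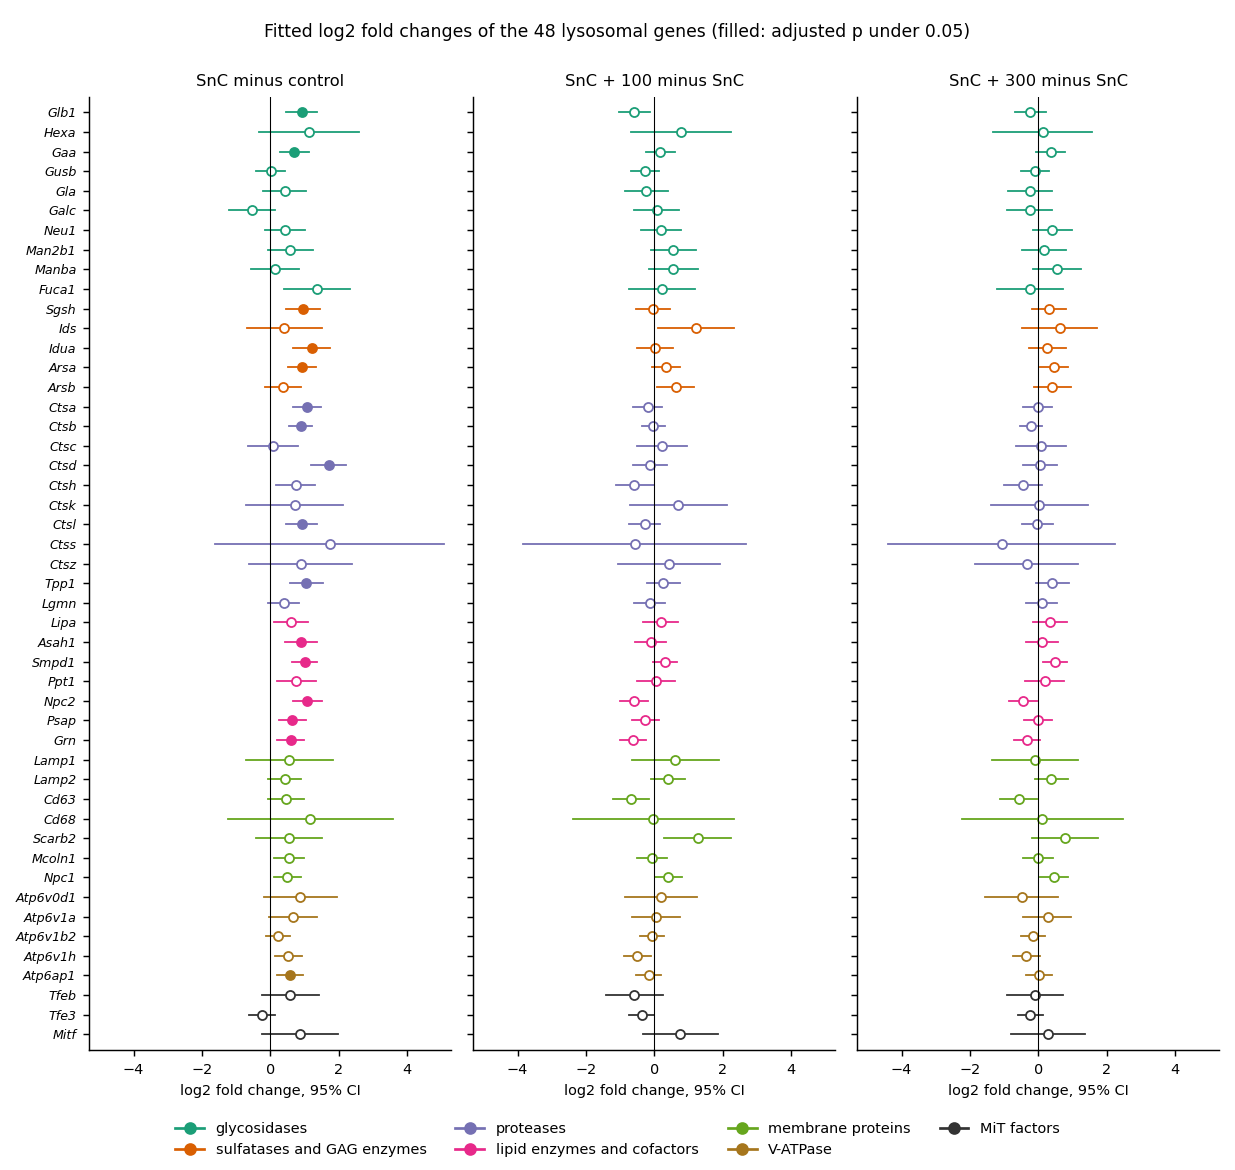
The 3 panels plot the fitted log2 fold change (x axis; points) with its 95% confidence interval (lines) of all 48 members (y axis, coloured by role) for SnCs minus control, 100 μg/mL minus SnCs and 300 μg/mL minus SnCs; filled points passed an adjusted p of 0.05. The left panel has 16 filled points, all to the right of 0, and the other panels have 0.

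How firmly these calls stood differed between genes. Ctsd, Ctsa and Smpd1 were called under all 19 alternatives. With SnCs and controls fitted alone, 5 of the 16 remained, Ctsa, Ctsb, Ctsd, Npc2 and Smpd1. Calls also rested on single control mice: without control mouse 4, 11 of the 16 remained and Asah1, Gaa, Psap, Grn and Atp6ap1 lost theirs, and without control mouse 5, 12 remained, with all of these but Gaa lost. Atp6ap1 was lost as well without mouse 4 or mouse 5 of the SnCs and with the replicate block (adjusted p = 0.0767). The fitted differences kept their direction when 1 mouse was left out, from 0.76 to 1.12 for Asah1, 0.59 to 0.84 for Gaa, 0.53 to 0.81 for Psap, 0.46 to 0.72 for Grn and 0.48 to 0.66 for Atp6ap1.

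The wide intervals of several members moved with a pattern between libraries that the groups did not explain. Genes whose exonic bases lie almost wholly (over 95%) in a single annotated transcript, 1081 genes with a mean count of at least 50, shifted together: their median deviation in log2 CPM was -1.51 in control 6, -1.20 in control 5(1), -0.99 in senescent mouse 5 and -1.11 in mouse 4 at 300 μg/mL, and it was 0.84 in control 5(2) and 1.08 and 1.21 in mice 4 and 5 at 100 μg/mL. The 2 libraries of control mouse 5 thus lay on opposite sides, with Lamp1 at 53.1 and 334 CPM. Across the 13 libraries the correlation with that median was 0.98 for Lamp1, 0.96 for Ctsk and Ctsz and 0.93 for Hexa, and 0.18 for Ctsd and 0.09 for Glb1, as a description over points that share a library. Over 80% of the sequence was of this kind in 12 members, of which 2, Ctsb and Npc2, were called, with a median SE of 0.475; of the 36 others 14 were called, with a median SE of 0.23. The membrane proteins Lamp1, Lamp2 and Scarb2 are among the 12. The 12 did not all follow the pattern, as their correlation with that median ran from 0.25 for Lamp2 to 0.98 for Lamp1. Man2b1 (0.86) and Fuca1 (0.83), which are among the 36 others, followed it closely. When offsets for this share and length were added, an alternative chosen after seeing the data, 10 members were called, among them 9 of the 16: Glb1, Sgsh, Idua, Arsa, Ctsa, Ctsd, Tpp1, Asah1 and Smpd1. Glb1 then differed by 0.76 (adjusted p = 0.0359) and Ctsd by 1.32 (adjusted p = 0.00154), while Ctsb (adjusted p = 0.0903), Npc2 (0.125), Ctsl (0.293), Psap (0.288), Grn (0.179), Gaa (0.0567) and Atp6ap1 (0.381) fell short. What made the libraries differ was not tested.

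**Figure D3:**
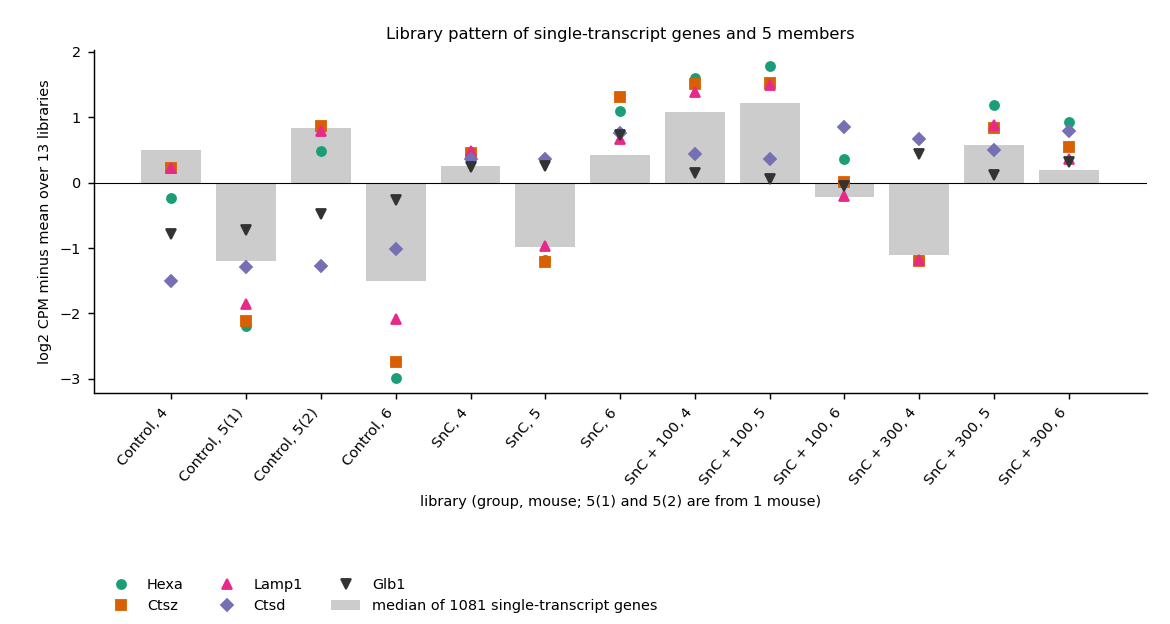
Bars give the median deviation of 1081 single-transcript genes in each of the 13 libraries (x axis, by group and mouse), and points that of 5 members, all as log2 CPM minus the gene's mean over libraries (y axis). Hexa, Ctsz and Lamp1 follow the bars, down to -2.98 for Hexa in control 6, whereas Ctsd and Glb1 are low in the 4 control libraries and above 0 in the 3 untreated SnC libraries whatever the bar.

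Reads shared with neighbouring genes limit some members further. Ctsd shares 34.4% of its exonic bases with Gm49369 on the same strand, and exons on the opposite strand cover 35.0% of Lamp1, 30.5% of Ctsz, 26.8% of Ctsl and 21.7% of Sgsh. The kit keeps strand, but the sources used here do not give the strand setting used for counting, so reads of these pairs may not have been told apart.

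Per transcript length, in the deposited TPM, which scales a gene's reads by its length, the order of the levels spanned from Ctsd (2385 in SnCs), Cd63 (1966), Ctsl (1430) and Psap (1076) at the top to Mitf (1.81), Cd68 (1.59) and Ctss (0.84) at the bottom. In controls Cd63, a tetraspanin of late endosomes, had the highest level (1409), ahead of Ctsl (721) and Ctsd (709), a pair that lay within each other's spread. In SnCs the ranges of Ctsd and Cd63 overlapped. Glb1 was in the middle of the order, 26th in controls (36.8) and 22nd in SnCs (70.5).

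**Figure D4:**
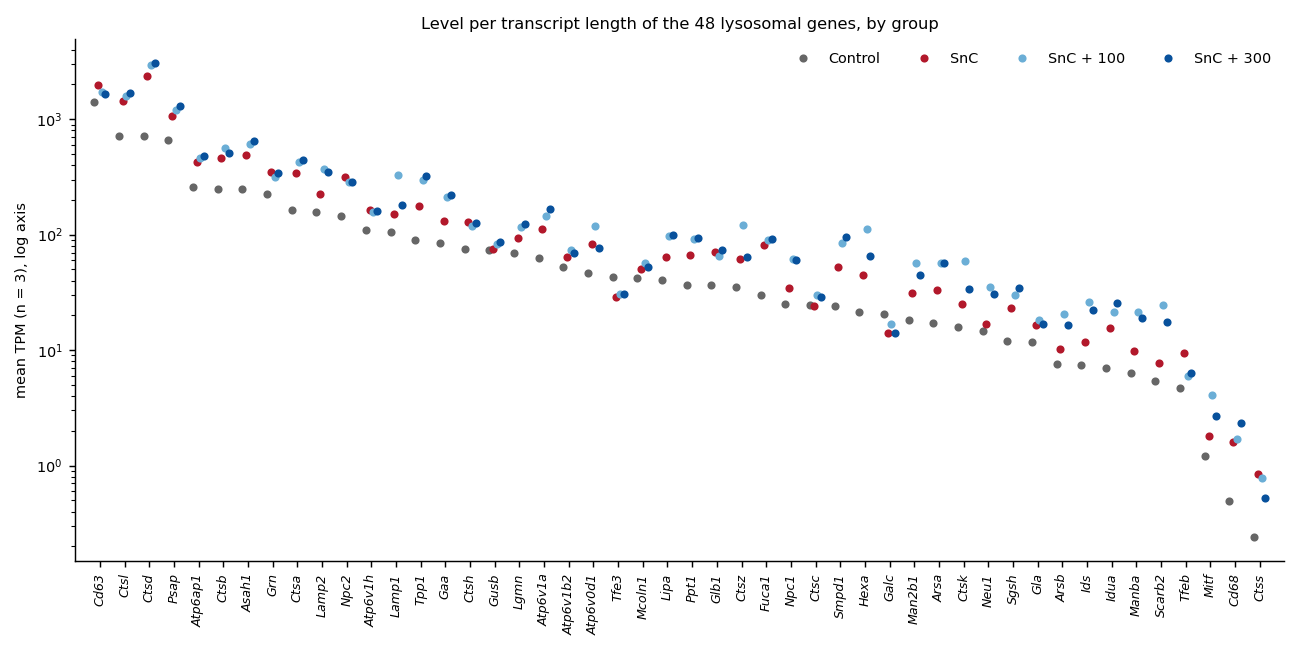
The mean TPM of 3 mice (y axis, log scale) is shown for each of the 48 members (x axis, ordered by the control level), coloured by group. Cd63 leads in controls at 1409 TPM, Ctsd in SnCs at 2385 TPM, and Mitf, Cd68 and Ctss lie lowest in controls, at 1.2 TPM or less.

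The transcription factors of the family that acts on these genes were not called. Tfeb measured 4.50, 4.18 and 7.75 CPM in controls and 4.92, 10.1 and 9.62 CPM in SnCs (0.59, 95% CI -0.24 to 1.42, adjusted p = 0.382). Tfe3, the most abundant of the family, measured 65.1, 77.1 and 80.3 CPM in controls and 60.5, 61.6 and 65.4 CPM in SnCs (-0.25, 95% CI -0.62 to 0.13, adjusted p = 0.422), lower in 3 of 3 mice with 1 control inside the SnC range. Mitf was low, at 1.57, 1.08 and 2.82 CPM in controls and 4.99, 3.49 and 1.46 CPM in SnCs (0.87, 95% CI -0.24 to 1.98, adjusted p = 0.326). These factors are known to be controlled largely by where they sit in the cell, which mRNA levels do not show. The 16 genes of the lysosomal mTORC1 and TFEB control machinery included 0 called (edgeR; 3 at an unadjusted p under 0.05; DESeq2 called 2).

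Genes of the same compartment outside the 48 were read from lists of the same kind, 143 genes of which 135 were tested. In SnCs 32 of the 135 were called higher and 0 lower (63 passed an unadjusted p under 0.05; DESeq2 called 43 higher and 2 lower), against 6.11% of all genes called higher and 25.4% passing the unadjusted p in either direction, with a median difference of 0.49. Sugar enzymes had 8 of 17 called, led by Hyal1, a hyaluronidase (2.12), Aga, which cleaves the link between sugar and asparagine (1.68), and the sulfatase Arsg (1.64). Among the other proteases 4 of 7 tested were called, with cathepsin F, encoded by Ctsf, at 8.63, 10.3 and 5.87 CPM in controls and 59.5, 74.4 and 85.3 CPM in SnCs (3.14, SE 0.27, adjusted p = 2.13e-05), followed by Ctso (1.65) and Dpp7 (1.51). Cst3, the secreted cathepsin inhibitor cystatin C, rose too (1.34, SE 0.24, adjusted p = 0.00291). Of the lipid and nucleic acid enzymes 4 of 13 were called, with Pla2g15, a lysosomal phospholipase, at 1.28, Pld3 at 1.02 and the acid phosphatase Acp2 at 0.77. The other membrane proteins had 3 of 28 called, Gpnmb (2.75), Lmbrd1 (1.24) and Laptm4b (1.00), and the other V-ATPase genes 7 of 14, led by Atp6v0e2 (1.88), Atp6v1d (1.08) and Atp6v0b (0.98). Hydrolase sorting had 2 of 16 called, Gnptg (1.26), a subunit of the enzyme that makes the mannose 6-phosphate tag, and the receptor Sort1 (1.22), and autophagy had 3 of 21, Map1lc3a (0.92), Map1lc3b (0.86) and Gabarapl2 (0.59), all of the family that is conjugated to autophagosome membranes. Sort1, Map1lc3a and Gabarapl2 lost their calls with the replicate block (adjusted p = 0.0559, 0.0813 and 0.0565) and when single mice were left out, as did Arsg without control mouse 4 or 5 or SnC mouse 4, and Ctso without control mouse 4.

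The comparisons of Fucoidan-FV with untreated SnCs asked whether the drug altered the lysosomal transcripts of SnCs within 12 h. Both use the same 3 SnC samples, so their values are given side by side and not as independent results. The comparison of SnCs with controls uses these samples too. A high SnC value thus raises a gene's difference from controls and lowers that of treated cells, so opposite signs are not independent either. At 100 μg/mL 0 of the 48 members were called (edgeR's quasi-likelihood test; 10 passed an unadjusted p under 0.05, 4 higher and 6 lower; DESeq2 called 1), where 1.14% of all genes tested were called higher and 2.89% lower and 19.8% passed the unadjusted p. At 300 μg/mL 0 were called (5 at an unadjusted p under 0.05, 3 higher and 2 lower; DESeq2 called 1), where 0.778% of all genes were called higher and 1.12% lower and 15.3% passed the unadjusted p. Both counts of members at the unadjusted p are thus near or below the share of all genes and are no result about the members. The median difference was 0.03 at 100 μg/mL (0.03, -0.18 and 0.03 in mice 4, 5 and 6) and 0.04 at 300 μg/mL (0.19, -0.12 and 0.01). The members' share of counts was 1.44% ± 0.0748 and 1.48% ± 0.0694 (SD, n = 3), next to 1.40% ± 0.106 in untreated SnCs. Differences smaller than the intervals given here were not detectable with 3 mice a group.

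Glb1 measured 88.2, 81.9 and 89.3 CPM at 100 μg/mL, below each of the 3 untreated SnC values of 108, 121 and 159 CPM, and 1 of them lay below the highest control value of 85.5 CPM. The difference of -0.58 (SE 0.21, 95% CI -1.04 to -0.13) had an adjusted p of 0.142 and was not called under any alternative (adjusted p 0.107 to 0.513). At 300 μg/mL Glb1 measured 129, 91.7 and 110 CPM, which overlapped the untreated SnCs (-0.23, 95% CI -0.68 to 0.23, adjusted p = 0.689). The interval at 300 μg/mL includes both no difference and a fall of the size fitted at 100 μg/mL.

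These directions depend on the scale. From SnCs to 100 μg/mL the median of all genes tested, as group means of log2(value + 0.5), was 0.02 in CPM with TMM factors, 0.20 in CPM over library totals and 0.34 in the deposited TPM, and the members' median was 0.09, 0.24 and 0.39, which is 0.06, 0.04 and 0.05 above all genes. To 300 μg/mL the medians of all genes were 0.01, 0.10 and 0.26, and those of the members 0.01, 0.12 and 0.34. Glb1 differed by -0.56, -0.36 and -0.10 at 100 μg/mL on the 3 scales, and by -0.22, -0.12 and 0.08 at 300 μg/mL, where its sign flips in TPM; relative to the median of all genes it was lower on each scale, by -0.58, -0.56 and -0.44 and by -0.23, -0.22 and -0.18. From controls to SnCs the scales hardly mattered, with 0.05, 0.08 and 0.06 for all genes and 0.65, 0.68 and 0.70 for the members.

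The members with an unadjusted p under 0.05 are named here after their values were seen, as a description only. Grn had the lowest adjusted p at 100 μg/mL, 0.0718: it measured 345, 338 and 397 CPM against 465, 538 and 651 CPM in untreated SnCs and 302, 374 and 417 CPM in controls (-0.62, SE 0.18). Npc2 measured 450, 408 and 445 CPM against 555, 544 and 863 CPM (-0.59, SE 0.19, adjusted p = 0.102). In both genes every treated sample lay below every untreated SnC sample. In TPM the differences were -0.15 and -0.14, and relative to the median of all genes on that scale -0.50 and -0.48. The other 4 lower members were Cd63 (-0.68), Ctsh (-0.58), Glb1 (-0.58) and Atp6v1h (-0.50). The higher ones were Scarb2, the membrane receptor that carries β-glucocerebrosidase (1.27), Ids, the iduronate sulfatase (1.22), Arsb (0.63) and Npc1 (0.41). Scarb2, Ids and Arsb are among the 12 members of single-transcript sequence, and with offsets for that share their differences were 0.52, 0.76 and 0.11. DESeq2 called Scarb2 (1.37, adjusted p = 0.035).

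At 300 μg/mL the higher members were Smpd1 (0.49, SE 0.17, adjusted p = 0.163), Arsa (0.47) and Npc1 (0.46), and the lower ones Npc2 (-0.45) and Cd63 (-0.58). Smpd1 measured 105, 77.5 and 82.0 CPM against 65.8, 61.3 and 60.8 CPM in untreated SnCs, without overlap, and was the member DESeq2 called (0.51, adjusted p = 0.044). Npc1 measured 87.4, 84.6 and 102 CPM at 100 μg/mL and 102, 97.8 and 84.2 CPM at 300 μg/mL, above the 3 untreated values of 72.9, 71.7 and 61.7 CPM at both doses. Npc2 was below its untreated values at both doses, at 512, 433 and 489 CPM with 300 μg/mL.

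Ctsd, the member that differed most between SnCs and controls among those called, stayed near its SnC level at both doses. It measured 2655, 2475 and 4069 CPM at 100 μg/mL and 3700, 2907 and 3763 CPM at 300 μg/mL, all above the control maximum of 1242 CPM, and overlapped the untreated SnCs. Idua (33.2 to 47.1 CPM), Arsa (82.2 to 109 CPM), Smpd1 (74.6 to 105 CPM), Tpp1 (253 to 372 CPM) and Gaa (310 to 447 CPM) likewise lay above all their control values in all 6 treated samples. So did Ctsa, Ctsb, Ctsl, Sgsh, Npc2, Asah1 and Atp6ap1, whereas Glb1, Psap and Grn did not. All of these members had been called higher in SnCs than in controls, so the separation follows in part from that choice. The share of all genes separated in this way is not given here.

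Between the doses, 0 members were called at 300 against 100 μg/mL (edgeR; 0 at an unadjusted p under 0.05; DESeq2 0), with 1 gene (0.00665%) called among all tested. The lowest unadjusted p, 0.116, belonged to Glb1, which was higher at 300 μg/mL in 3 of 3 mice (0.35, 95% CI -0.10 to 0.81).

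With Fucoidan-FV, Tfeb measured 5.29, 5.19 and 6.02 CPM at 100 μg/mL and 8.37, 5.69 and 9.0 CPM at 300 μg/mL, with differences from SnCs of -0.58 (95% CI -1.41 to 0.25) and -0.10 (95% CI -0.92 to 0.73). Tfe3 measured 44.9, 45.0 and 55.1 CPM and 50.9, 50.2 and 59.2 CPM, below all 3 untreated SnC values at both doses (-0.37 and -0.23) but with adjusted p of 0.254 and 0.605. In TPM the sign of Tfe3 turned (0.08 and 0.06), but relative to the median of all genes on that scale it stayed lower (-0.26 and -0.20). Mitf measured 5.76, 6.47 and 4.60 CPM and 3.30, 3.91 and 4.94 CPM (0.76 and 0.29). None of the 3 factors was called at either dose.

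Of the 135 other lysosomal genes tested, 1 was called at 100 μg/mL, lower, and 0 at 300 μg/mL (edgeR; 36 and 22 at an unadjusted p under 0.05; with DESeq2 the counts were 7 higher and 1 lower for 100 μg/mL, 3 higher for 300 μg/mL). Among all genes 19.8% and 15.3% passed the unadjusted p. The gene called was Sqstm1, which encodes the autophagy receptor p62. It measured 1064, 1140 and 1118 CPM in untreated SnCs, 609, 634 and 727 CPM at 100 μg/mL and 855, 730 and 751 CPM at 300 μg/mL. The groups did not overlap, with a difference of -0.75 (SE 0.17, adjusted p = 0.0299) at 100 μg/mL and -0.51 (SE 0.17, adjusted p = 0.156) at 300 μg/mL. Its controls, at 625, 767 and 910 CPM, overlapped the treated samples, with mouse 6 above all 6 of them. The call of Sqstm1 held under 10 of the 19 alternatives, with adjusted p from 0.00872 to 0.149, and among those that ended it were the fit of the 2 groups alone (adjusted p = 0.111) and leaving out mouse 4 or 5 of either group or mouse 6 of the SnCs. On the TPM scale its differences were -0.48 and -0.23, and relative to the median of all genes on that scale -0.82 and -0.49. Of the 14 other V-ATPase genes tested, 0 were called at either dose (edgeR; 6 and 4 at an unadjusted p under 0.05, all lower; DESeq2 0). Their median difference was -0.45 at 100 μg/mL and -0.36 at 300 μg/mL, with 11 and 12 of 14 below 0, but the median at 100 μg/mL turned to 0.07 in TPM, a difference of -0.27 from the median of all genes on that scale.

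**Figure D5:**
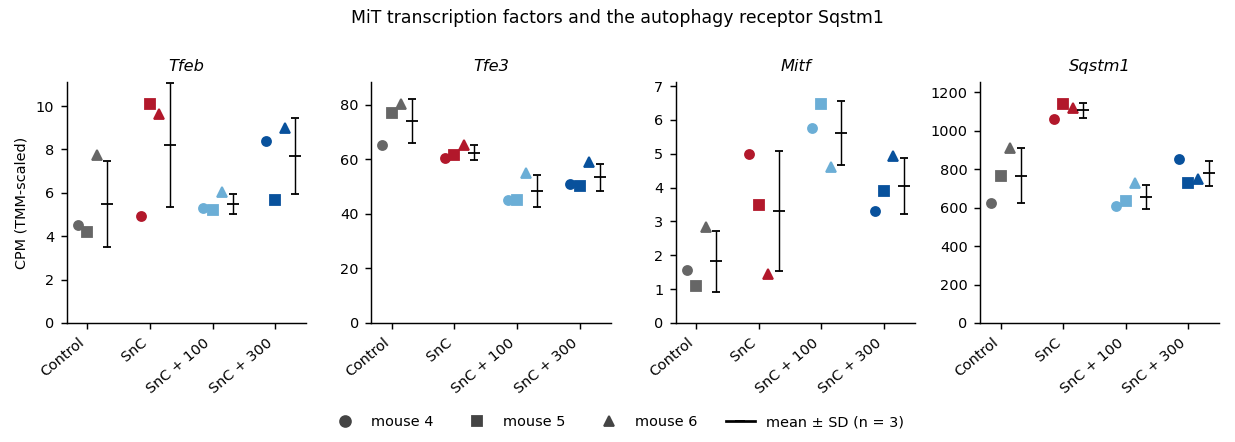
The TMM-scaled CPM (y axis, from 0) of Tfeb, Tfe3, Mitf and Sqstm1 is plotted per mouse for the 4 groups (x axis), with the mean ± SD of 3 mice. Tfeb overlaps between groups, and Mitf overlaps between untreated SnCs and each other group. The CPM of Tfe3 is lowest with Fucoidan-FV (44.9 to 59.2), a direction that flips in TPM but not relative to the median of all genes in TPM. Sqstm1 is at 1064 to 1140 CPM in untreated SnCs and at or under 855 CPM with Fucoidan-FV.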

How the data were processed

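Total RNA of the 13 libraries was sequenced as stranded 150-base read pairs. According to the study's methods and the submitters' notes, the authors trimmed reads with Trimmomatic, aligned them to GRCm39 with STAR (2.7.11b) and quantified genes with RSEM (1.3.1), which gave the deposited expected counts, estimated reads per gene that need not be whole, and the deposited TPM, scaled by transcript length and library. The tables of counts repeated for the whole series were not used. Expected counts were rounded, the libraries 5(1) and 5(2) summed, genes filtered with filterByExpr (minimum count 10, minimum total count 15) and fitted in 1 model of 4 groups without covariates (edgeR 4.0.16, R 4.3.3, TMM factors, quasi-likelihood test, Benjamini-Hochberg adjustment over 15034 genes, called at an adjusted p under 0.05); DESeq2 (1.42.0) was an alternative. Intervals are 95%. CPM are counts scaled to a fixed library size with TMM factors. TPM was used between genes. The fit was tested on simulated counts, drawn without the library pattern of single-transcript genes and without pairing by mouse, so that test does not cover either feature. P-values measure the spread between cultures of 3 mice.

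Members and lists were chosen with earlier results of these data known. By rule, values in every sample are given for Glb1, Tfeb, Tfe3, Mitf and the 12 called members with the largest differences. The called genes of each other list are named, up to 3 by size. Outside that rule, sample values are also printed for Gaa, Atp6ap1, Fuca1, Mcoln1, Npc1, Ctsf, Sqstm1 and Igf2r. The same holds for genes said to be described after their values were seen. The same mouse number in the labels pairs samples across groups; of 18 same-mouse pairs of deviations 8 correlated over 0.1 (median -0.006, against 0.034 between mice). The alternatives were DESeq2, RLE factors, 2 other filters, separate or single libraries of control mouse 5, each mouse left out, only the groups compared, the replicate block, and offsets for length and transcript number; offsets for the single-transcript share were added after seeing the data.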

Additional observations from a re-analysis of the deposited data

How the results depend on the processing

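The count of members called higher in SnCs than in controls (16) was between 15 and 22 with DESeq2, RLE factors, other filters, other uses of the libraries of control mouse 5 and offsets for length and transcript number, but fell to 5 with only the 2 groups fitted, where fewer samples estimate the spread, to 10 with offsets for the single-transcript share and length, also with the replicate block added, and to 6 with the fold threshold. With 1 mouse left out it ranged from 11 to 22. The replicate block alone, which pairs samples of the same mouse, gave 16 calls, 15 of them shared, and changed no other count of members called. Their median difference (0.66) was 0.78 with library 5(1) alone, 0.48 with the share offsets with or without the replicate block, and 0.59 to 0.76 with 1 mouse left out. At 100 μg/mL members called higher (0) became 1 with DESeq2, 2 without a filter, 1 with offsets for length and transcript number and 0 to 1 with 1 mouse left out (1 without senescent mouse 4, Arsb), and members called lower (0) became 1 with the share offsets (Grn); the median (0.03) was 0.15 with length offsets and the replicate block, -0.09 with share offsets and the replicate block, and -0.04 to 0.18 with 1 mouse left out. At 300 μg/mL members called higher (0) became 1 with DESeq2 and 0 to 1 with 1 mouse left out (1 without senescent mouse 6, Neu1), and the median (0.04) was -0.01 to 0.20 with 1 mouse left out. No called difference changed sign under any alternative. The 3 mice a group and the library pattern of single-transcript genes limit what could be detected, most of all for Hexa, Ctsk, Ctsz and Lamp1; Ctss and Cd68 were limited by depth.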

Other observations

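Sort1 encodes sortilin, a receptor that routes proteins to lysosomes, and is described here after its values were seen. It was called higher in SnCs than in controls, a call lost with the replicate block. Its values were higher again with Fucoidan-FV. In mice 4, 5 and 6 it measured 5.69, 7.66 and 10.5 CPM in controls, 19.7, 25.2 and 10.8 CPM in SnCs, 29.0, 34.8 and 67.9 CPM at 100 μg/mL and 43.0, 46.7 and 50.4 CPM at 300 μg/mL. Neither Fucoidan-FV group of Sort1 overlapped the untreated SnCs, but neither difference passed the threshold: 1.24 at 100 μg/mL (SE 0.37, edgeR adjusted p = 0.0749) and 1.33 at 300 μg/mL (SE 0.37, adjusted p = 0.0901). Sort1 was not alone in this, as the sorting genes Sumf1 and Gga2 also lay above all untreated SnC values at both doses. Igf2r, the mannose 6-phosphate receptor that carries most soluble hydrolases to the lysosome, measured 99.2, 120 and 31.4 CPM in controls, 121, 56.2 and 54.0 CPM in SnCs, 254, 312 and 138 CPM at 100 μg/mL and 57.8, 218 and 157 CPM at 300 μg/mL. Its differences from SnCs, 1.61 (SE 0.54, adjusted p = 0.115) and 0.90 (SE 0.53, adjusted p = 0.466), did not pass the threshold. Control mouse 6 and mouse 4 at 300 μg/mL, where it was low, and mice 4 and 5 at 100 μg/mL, where it was highest, were also low and high in the library pattern of single-transcript genes, whose part in these values was not tested. M6pr, the other mannose 6-phosphate receptor, had differences of the opposite sign, -0.51 (SE 0.22, adjusted p = 0.219) and -0.38 (SE 0.22, adjusted p = 0.45), and overlapped the SnCs at both doses. Of the 16 hydrolase sorting genes, edgeR called 0 at either dose, whereas DESeq2 called 3 higher at 100 μg/mL and 2 higher at 300 μg/mL, which are not named here.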
